A study of Mus musculus with 7 samples.

Results

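Transcripts of Trp53, the gene that encodes p53, and of 9 genes that p53 activates directly were followed in 7 mouse G3 MBs whose cells of origin lacked Trp53. The 10 genes are Trp53, Cdkn1a, Mdm2, Ccng1, Bax, Bbc3, Pmaip1, Sesn2, Zmat3 and Phlda3. They were taken by name from the 34592 genes of the deposited count table, and all 10 had counts in every tumor. G3 MB is Group 3 medulloblastoma, a malignant tumor of the cerebellum. All 7 tumors derived from tumorsphere line # 19568, made from granule neuron progenitors that the methods describe as purified from the cerebella of 7 days old Trp53-/-; Cdkn2c-/- mice and infected with an MSCV retrovirus for Myc and GFP. The tumorspheres were infected with a pCDH lentivirus that carried either WDR11, whose human cDNA was driven by the EF1 promoter and followed by copGFP, or no insert. The unsorted cells were injected into the brain cortex of host mice of the CD1 nu/nu strain, 6 to 8 weeks old according to the methods, and tumors were taken when the mice became moribund. Of the 7 tumors, 4 were labelled as WDR11 overexpression (WDR11OE) and 3 were controls, which the methods give as empty vector and the sample labels as untreated. Both groups therefore share the deletion of Trp53 and Cdkn2c, the retroviral Myc and the single line, and each tumor also holds cells of a host that is not described as lacking Trp53.

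p53 is a transcription factor that is held at a low level by the ubiquitin ligase Mdm2 and is stabilised by DNA damage or by an oncogene such as Myc. It binds a response element made of a pair of decamers and switches on genes that stop the cell cycle, start apoptosis, limit growth signals or, as Mdm2 does, end the response. Most of these genes also have a basal transcription that does not need p53.

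The response element can be read in the mouse genome beside several of the 10 genes, and the sequences are shown because they are where p53 would bind. In a window of 5000 bases on each side of the annotated gene start, both strands of NCBIM37 were searched for the p53 full site, 2 decamers without a spacer, which had to hold the C and G of both decamer cores and could depart from the consensus at no more than 2 of the other 16 positions. The site was found for 5 of the 10 genes. It was found in 9.84% of the 22050 protein-coding genes with a window of the same length. With at most 1 departure the numbers were 3 of 10 genes and 1.72%. The 6 sites of Cdkn1a, Ccng1, Bax and Zmat3 read as follows on the strand of the gene, with capitals for bases on the consensus and lower case for those that depart from it.
Cdkn1a, upstream, chr17:29227873-29227892: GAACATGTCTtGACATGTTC
Ccng1, upstream, chr11:40568964-40568983: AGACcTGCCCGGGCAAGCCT
Ccng1, intron, chr11:40568438-40568457: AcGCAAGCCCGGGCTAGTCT
Bax, exon, chr7:52721944-52721963: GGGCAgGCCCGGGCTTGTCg
Zmat3, intron, chr3:32263253-32263272: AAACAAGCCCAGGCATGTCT
Zmat3, upstream, chr3:32269073-32269092: GAGCAAGTCTGGGCTTGTTa
The Zmat3 intron held the only site with no departure. The site of Cdkn1a lay at −7270 to −42 bases from the 3 annotated starts of its transcripts, where a negative distance is upstream. No match was found in the windows of Trp53, Mdm2, Bbc3, Sesn2 and Phlda3, which says only that these letters are not there, and the site of Pmaip1 was counted without being printed. A match is not a measurement of binding.

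**Figure D1:**
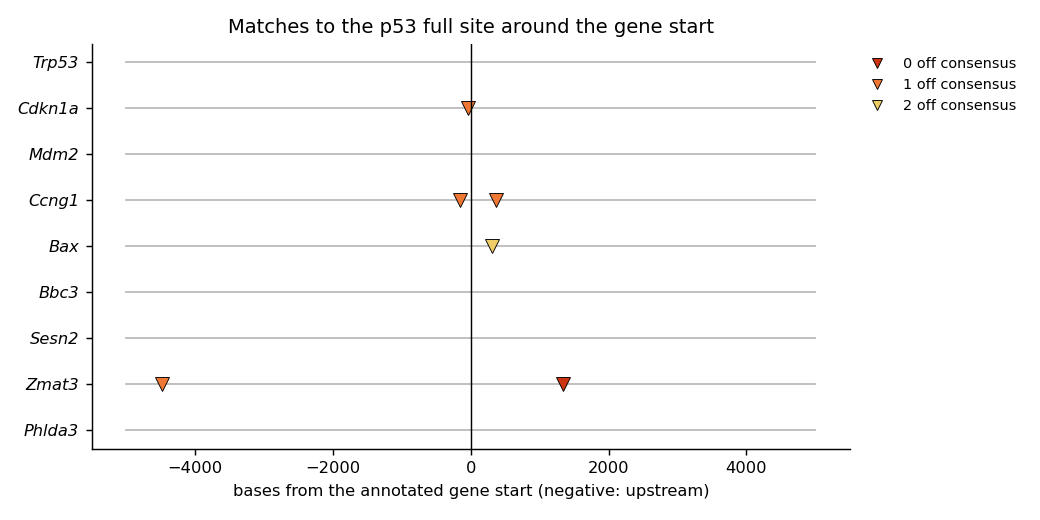
Positions of matches to the p53 full site within 5000 bases of the annotated start of 9 of the genes. The horizontal axis gives the distance in bases, triangles are matches and their colour gives the number of positions off the consensus. The 6 triangles belong to Cdkn1a, Ccng1, Bax and Zmat3, and the only one with 0 departures lies in Zmat3.

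Total counts ranged from 33417175 to 41397427 in control tumors and from 32116095 to 87141305 in tumors labelled WDR11OE. The libraries of the groups carry numbers of separate series, so a difference between series and the difference between conditions cannot be told apart. The row of human WDR11 did not separate the groups. It stood at 2.03, 2.19 and 3.13 CPM in controls 1 to 3, against 4.38, 2.11, 3.05 and 0.624 CPM in the tumors labelled WDR11OE replicates 1 to 4, where CPM is the count scaled to library size after TMM normalisation. Only the tumor labelled WDR11OE replicate 1 exceeded every control, and replicate 4 was below every control. The log2 fold change of this row was 0.05 (95% confidence interval −1.30 to 1.40, edgeR adjusted p = 0.961). Here and in what follows an edgeR adjusted p is that of the quasi-likelihood test, corrected by the Benjamini-Hochberg method over all genes tested. The row of mouse Wdr11 was at 58.9, 58.3 and 59.3 CPM in controls and at 66.8, 61.0, 65.7 and 68.9 CPM in the tumors labelled WDR11OE replicates 1 to 4, without overlap, and its log2 fold change was 0.16 (edgeR adjusted p = 0.0910) and −0.0083 with the trend on GC content described below removed. How reads that fit both the human and the mouse gene were counted is not given in the sources used here. Directions below are therefore between tumors labelled WDR11OE and controls. The tumors labelled WDR11OE replicates 1 and 2, whose titles share a number, also stood apart in neuron markers. The summed level of 6 such markers was 9.31 CPM and 20.4 CPM in them. It was 168 CPM and 550.2 CPM in replicates 3 and 4, and 39.1 to 245 CPM in controls. Red blood cell markers went the other way, at 378 CPM and 231 CPM in replicates 1 and 2 against 23.6 CPM and 55.3 CPM in replicates 3 and 4. Oligodendrocyte markers did not set replicates 1 and 2 apart. The 6 markers of the cerebellar granule lineage differed widely in level. Atoh1 had a count of 0 in all 7 tumors, and Barhl1 was at 0 CPM in all but WDR11OE replicate 1 (0.0237 CPM). Neurod1 was between 0.0237 CPM and 2.54 CPM, Zic2 between 2.57 CPM and 7.33 CPM, and Zic1 between 1.76 CPM and 16.8 CPM. Pax6, the highest of them, was between 17.2 CPM and 31.2 CPM.

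Trp53 (ENSMUSG00000059552, chr11:69393861-69405375, plus strand, NCBIM37) was transcribed in every tumor, although it is deleted in the cells from which the line was made. Its level was 53.9, 45.0 and 46.2 CPM in control replicates 1 to 3, against 35.002, 35.6, 32.5 and 27.8 CPM in the tumors labelled WDR11OE replicates 1 to 4. Each control lay above each tumor labelled WDR11OE. The level was 1.48-fold lower in tumors labelled WDR11OE, or, on the log2 scale, −0.56 (SE 0.11, edgeR adjusted p = 0.00763). A two-sided exact permutation test over the 35 splits of 7 tumors gave p = 0.0286, the smallest value it can give. The test gave the same value for Cdkn1a, Ccng1, Bbc3, Sesn2, Zmat3 and Phlda3, whose groups also did not overlap. Only groups that do not overlap can give this value, and 19.1% of all genes were lower and 23.5% higher without overlap. The counts are per gene and do not show which exons the reads cover, so they do not check the deletion. In bulk tumors, fewer cells of a type and less RNA per cell cannot be told apart.

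Per length of exon, Trp53 stood well within the range of expressed genes. Its mean level over the 7 tumors was 9.75 RPKM, computed here as the CPM divided by the exon length in kilobases, above 68.5% of the genes tested. Cdkn2c, the other deleted gene, which encodes the CDK inhibitor p18 INK4C, stood at 7.19 RPKM on the same scale. It averaged 16.2 ± 1.02 CPM (SD, n = 3) in controls against 21.6 ± 5.47 CPM (SD, n = 4) in tumors labelled WDR11OE, and the difference did not pass the test (log2 fold change 0.42, edgeR adjusted p = 0.162), although with the trend on GC content described below removed it did (log2 fold change 0.70, edgeR adjusted p = 0.0473). Myc, the driver of the model, was at 1109, 821 and 812 CPM in controls 1 to 3 and at 389.8, 431, 278 and 289 CPM in the tumors labelled WDR11OE replicates 1 to 4, without overlap. It was 2.63-fold lower, or −1.40 in log2 units (SE 0.20, edgeR adjusted p = 0.00228), and stayed lower under all 16 alternatives. The counts do not separate the retroviral from the endogenous Myc, and the part of Myc in the results for p53 targets was not tested. Cdkn2a, which encodes the Mdm2 inhibitor ARF and the CDK inhibitor INK4A, was at 54.5 RPKM, while the relatives of p53 were barely detected, Trp63 at 0.0460 RPKM and Trp73 at 0.0375 RPKM.

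**Figure D2:**
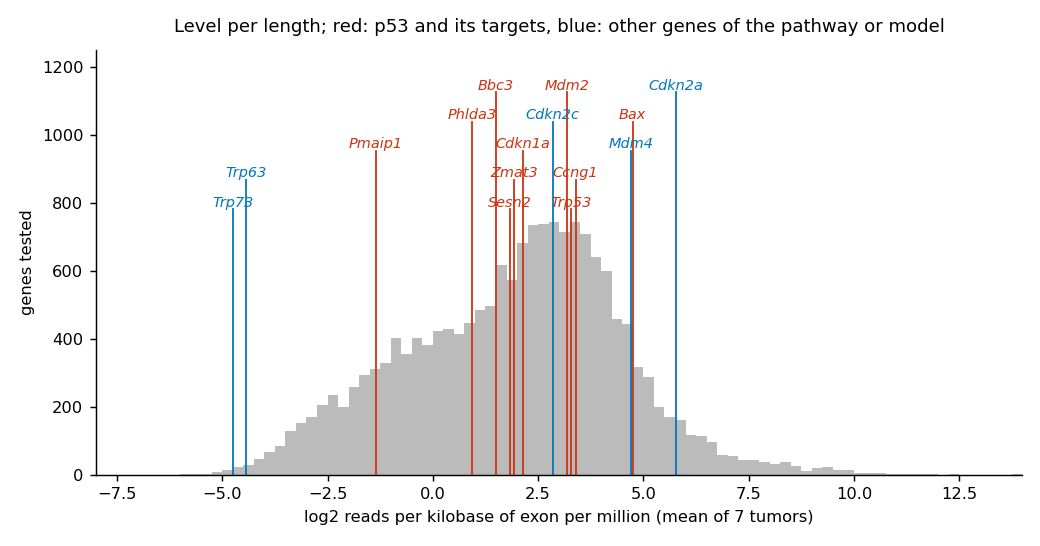
Histogram of the log2 level per length (RPKM, mean of 7 tumors) of the genes tested, with the 10 genes in red and 5 other genes of the pathway or model in blue. Trp53 (9.75 RPKM), Mdm2 (9.11 RPKM) and Ccng1 (10.5 RPKM) stand close together near the peak, Bax (26.8 RPKM) stands above them and Pmaip1 (0.393 RPKM) stands lowest of the 10.

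By level per length, averaged over the 7 tumors, Bax came first of the 10 genes at 26.8 RPKM. Ccng1 (10.5 RPKM), Trp53 and Mdm2 (9.11 RPKM) followed, but their order was not the same in the groups. In controls Trp53 (11.1 to 13.3 RPKM) lay above Ccng1 (7.92 to 9.70 RPKM) and Mdm2 (8.11 to 9.10 RPKM), which overlapped. In tumors labelled WDR11OE Ccng1 (10.7 to 12.9 RPKM) lay above Trp53 (6.87 to 8.80 RPKM), and Mdm2 (8.79 to 10.9 RPKM) overlapped both. Cdkn1a (4.41 RPKM), Zmat3 (3.799 RPKM) and Sesn2 (3.56 RPKM) came next, and in each group the range of Cdkn1a overlapped those of Zmat3 and Sesn2. By group mean, Zmat3 lay above Sesn2 in controls (5.61 against 4.74 RPKM) and below it in tumors labelled WDR11OE (2.44 against 2.67 RPKM). Bbc3 (2.83 RPKM), Phlda3 (1.92 RPKM) and Pmaip1 (0.393 RPKM) came last, in this order in both groups. The ranges of Bbc3 and Phlda3 overlapped in controls and not in tumors labelled WDR11OE. In the latter, Bbc3 (2.19 to 2.49 RPKM) overlapped Zmat3 (2.08 to 2.96 RPKM) and Sesn2 (2.48 to 2.84 RPKM).

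Between the groups, 5 of the 10 genes were lower and 1 was higher in the tumors labelled WDR11OE, at an adjusted p under 0.05 and any fold. Among all 17389 genes tested, 15.8% were lower and 18.1% were higher by this rule. The lower genes were Trp53, Cdkn1a, Bbc3, Sesn2 and Zmat3, and the higher gene was Ccng1. Mdm2, Bax, Pmaip1 and Phlda3 did not pass. With a fold of at least 2 and an average log2 CPM above 0 also required, Zmat3 alone remained, against 3.36% of all genes lower and 2.19% higher. For 6 lower genes and 1 higher gene, no control shared the range of the other group, against 19.1% and 23.5% of all genes. For the genes whose groups overlap, the exact permutation test gave p = 0.171 for Mdm2, p = 0.657 for Bax and p = 0.286 for Pmaip1. The median log2 fold change of the 10 genes was −0.56 and that of all genes tested was 0.08. Trp53, Sesn2 and Zmat3 were lower at an adjusted p under 0.05 under all 16 alternatives of the analysis. The call was lost under 11 of the 16 for Cdkn1a, 9 for Bbc3 and 7 for Ccng1.

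**Figure D3:**
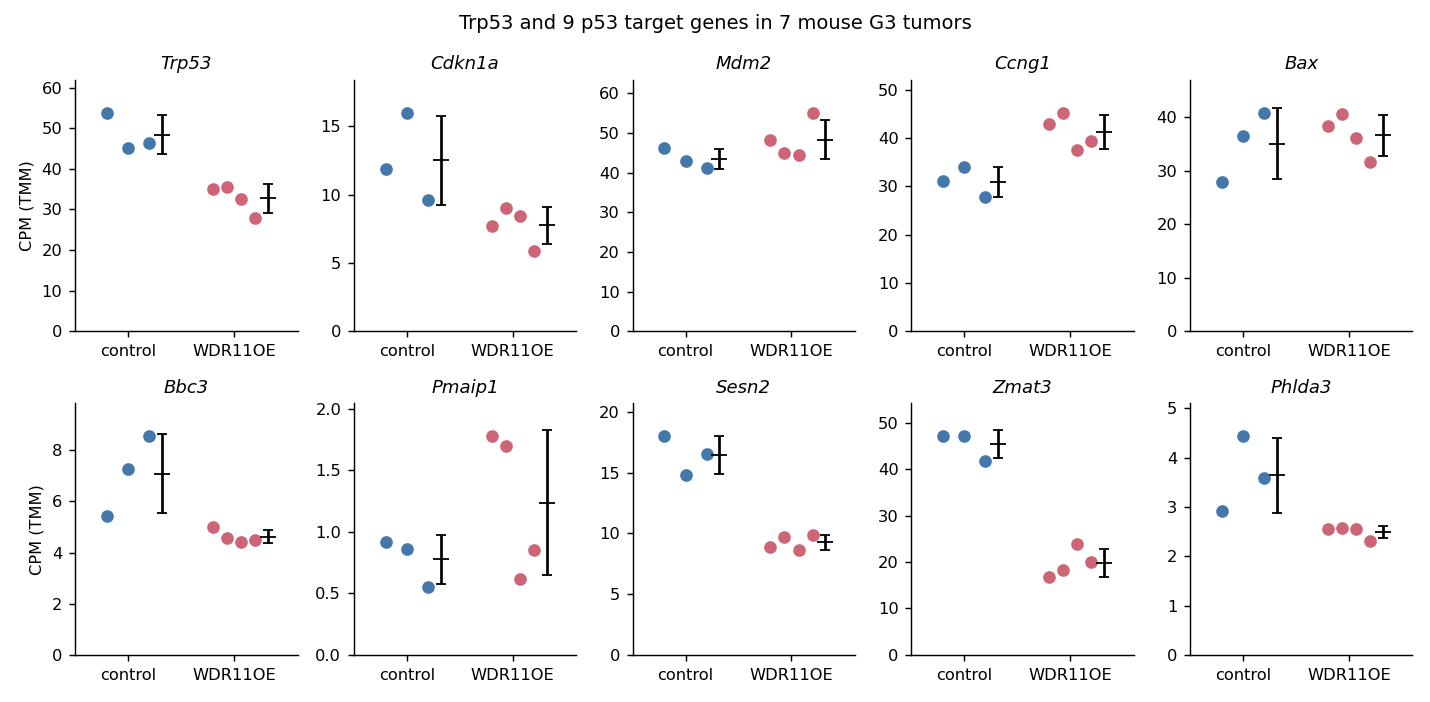
CPM after TMM scaling of the 10 genes, 1 point per tumor (blue for 3 controls, red for 4 tumors labelled WDR11OE), with the group mean and SD in black and each vertical axis starting at 0. Trp53, Cdkn1a, Bbc3, Sesn2, Zmat3 and Phlda3 have all red points below the blue ones, Ccng1 has all red points above, and Mdm2, Bax and Pmaip1 overlap.

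The fold change of all genes fell with the GC content of their exons, and this touches several of the 10. The Spearman correlation was −0.40 over 13092 protein-coding genes, and genes are not replicates. The median log2 fold change was 0.34 in the quartile of these genes with the lowest GC content (up to 45.1%) and −0.24 in the quartile with the highest (from 54.7%). Ccng1, at 40.8% GC, and Pmaip1, at 41.8%, lie in the lowest quartile, and Bax (61.8%), Phlda3 (61.8%), Bbc3 (64.6%) and Sesn2 (58.7%) lie in the highest. With the trend of each tumor on GC content taken out, 3 of the 10 genes were lower, Trp53, Sesn2 and Zmat3, and 1 was higher, which was Bax and not Ccng1, against 13.7% of all genes lower and 12.2% higher in that fit. Whether the trend comes from the libraries or from the tumors was not tested.

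**Figure D4:**
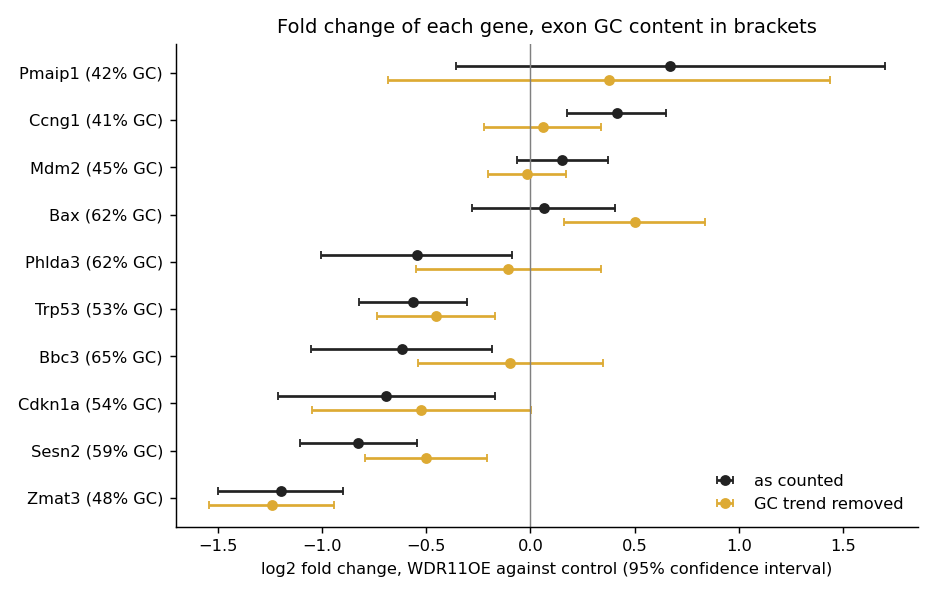
Log2 fold change of each gene between tumors labelled WDR11OE and controls with its 95% confidence interval, from the counts as deposited (black) and with the GC trend removed (yellow). Zmat3, Sesn2 and Trp53 stay below 0 in both fits, Ccng1 moves from 0.41 to 0.06, Bbc3 from −0.62 to −0.10 and Bax from 0.06 to 0.50.

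Of the genes that act on the cell cycle, Cdkn1a was lower and Ccng1 was higher. Cdkn1a (ENSMUSG00000023067, chr17:29227924-29237667) encodes the CDK inhibitor p21, the main mediator of the p53-dependent G1 arrest. Control replicates 1 to 3 held 11.9, 16.02 and 9.62 CPM, against 7.70, 9.03, 8.44 and 5.86 CPM in the tumors labelled WDR11OE replicates 1 to 4. The groups did not overlap, but the lowest control and the highest tumor labelled WDR11OE were next to each other. It was 1.62-fold lower, or, on the log2 scale, −0.69 (SE 0.22, edgeR adjusted p = 0.0483). Control replicate 2, the highest, also had the highest summed level of 9 microglia and macrophage markers, 316 CPM against 155 CPM and 183 CPM in the other controls. It was also the highest control in the summed markers of endothelium (142 CPM), astrocytes (383 CPM), oligodendrocytes (349 CPM) and the granule lineage (37.9 CPM). It was not the highest control in those of neurons, skeletal muscle or red blood cells. The part of these cells in the result was not tested. Without control replicate 2 the log2 fold change was −0.48 and the edgeR adjusted p was 0.170, and the call also failed without control replicate 1 or without any of the 4 tumors labelled WDR11OE.

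Ccng1 (ENSMUSG00000020326, chr11:40562054-40568813, minus strand) encodes cyclin G1, which recruits protein phosphatase 2A to Mdm2. In control replicates 1 to 3 it stood at 31.0, 34.1 and 27.8 CPM, against 42.9, 45.3, 37.5 and 39.4 CPM in the tumors labelled WDR11OE replicates 1 to 4. Every tumor labelled WDR11OE was above every control. The log2 fold change of 0.41 (SE 0.10, edgeR adjusted p = 0.0180) is a 1.33-fold rise. It was 0.06 with the GC trend removed (edgeR adjusted p = 0.760), and the call failed without control replicate 1 or 3 or WDR11OE replicate 1 or 2.

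Mdm2 (ENSMUSG00000020184, chr10:117125944-117147814, minus strand), both a target of p53 and the ligase that marks it for degradation, did not pass the test. The 3 controls, in order, held 46.2, 43.0 and 41.1 CPM, against 48.3, 45.1, 44.6 and 55.2 CPM in the tumors labelled WDR11OE replicates 1 to 4. The groups overlapped, and WDR11OE replicate 4 stood highest. The log2 fold change was 0.15 with a 95% confidence interval from −0.07 to 0.37 (edgeR adjusted p = 0.258). Its relative Mdm4, which binds and inhibits p53, was at 84.1 ± 11.3 CPM (SD, n = 3) and 98.1 ± 11.5 CPM (SD, n = 4), or, on the log2 scale, 0.22 (edgeR adjusted p = 0.218).

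Of the 3 genes of the mitochondrial death pathway, Bbc3 was lower, and Bax and Pmaip1 did not pass. Bbc3 (ENSMUSG00000002083, chr7:16894965-16903554), which encodes the BH3-only protein PUMA, stood at 5.45, 7.27 and 8.55 CPM in controls 1 to 3, against 5.00, 4.58, 4.41 and 4.50 CPM in the tumors labelled WDR11OE replicates 1 to 4. The controls were spread, with a coefficient of variation of 22.0% against 5.64%, and the lowest of them was just above the highest tumor labelled WDR11OE. On the log2 scale the difference was −0.62 (SE 0.19, edgeR adjusted p = 0.0383). It was −0.10 with the GC trend removed (edgeR adjusted p = 0.751), and with 1 tumor left out the call held only without control replicate 1.

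Bax (ENSMUSG00000003873, chr7:52717065-52722268, minus strand) encodes a pore-forming protein of the mitochondrial membrane and was the most abundant of the 10 genes per length. Its transcripts reached 27.8, 36.5 and 40.9 CPM in control replicates 1 to 3, against 38.3, 40.5, 36.1 and 31.6 CPM in the tumors labelled WDR11OE replicates 1 to 4. The groups covered the same range. The difference in log2 units was 0.06 with a 95% confidence interval from −0.28 to 0.41 (edgeR adjusted p = 0.776). With the GC trend removed it was 0.50 (edgeR adjusted p = 0.0413).

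Pmaip1 (ENSMUSG00000024521, on chromosome 18), which encodes the BH3-only protein NOXA, was the least abundant, with 18 to 36 counts in a control and 20 to 136 counts in a tumor labelled WDR11OE. Replicates 1 to 3 of the controls gave 0.917, 0.858 and 0.552 CPM, against 1.78, 1.697, 0.616 and 0.854 CPM in the tumors labelled WDR11OE replicates 1 to 4. Replicates 1 and 2 were above all other tumors, and replicates 3 and 4 were within the range of the controls. The log2 fold change of 0.67 had a 95% confidence interval from −0.36 to 1.701 (edgeR adjusted p = 0.289).

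Of the remaining genes, Zmat3 and Sesn2 were lower and Phlda3 did not pass. Zmat3 (ENSMUSG00000027663, chr3:32233718-32264600, minus strand), a zinc finger RNA-binding protein that acts in splicing and mRNA stability, had the largest fold of the 10 among genes that passed. It was measured at 47.1 CPM in each of control replicates 1 and 2 and at 41.9 CPM in control replicate 3, against 16.8, 18.2, 23.9 and 20.1 CPM in the tumors labelled WDR11OE replicates 1 to 4. The lowest control was far above the highest tumor labelled WDR11OE. It was 2.30-fold lower, or, on the log2 scale, −1.20 (SE 0.13, edgeR adjusted p = 0.00112), and leaving out each tumor in turn kept this between −1.30 and −1.17. With the GC trend removed the log2 fold change was −1.24.

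Sesn2 (ENSMUSG00000028893, chr4:132047947-132066416, minus strand) encodes sestrin 2, a leucine sensor that inhibits mTORC1 and is also induced by ATF4. Among controls, replicates 1 to 3 stood at 18.01, 14.8 and 16.6 CPM, against 8.88, 9.74, 8.63 and 9.86 CPM in the tumors labelled WDR11OE replicates 1 to 4. The groups were apart and the tumors labelled WDR11OE were close together. It was 1.77-fold lower, or, on the log2 scale, −0.83 (SE 0.12, edgeR adjusted p = 0.00250), which was −0.50 with the GC trend removed (edgeR adjusted p = 0.0248). Its paralog Sesn1, also a target of p53, changed the other way. It rose from a control mean of 30.7 ± 1.41 CPM (SD, n = 3) to 42.2 ± 1.92 CPM (SD, n = 4), which is 0.46 in log2 units (edgeR adjusted p = 0.00305). The contrast between these paralogs was not tested as a difference.

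Phlda3 (ENSMUSG00000041801, chr1:137662696-137665713) encodes a pleckstrin homology protein that competes with AKT for membrane lipids. Its transcripts stood at 2.92, 4.44 and 3.59 CPM in control replicates 1 to 3, against 2.56, 2.57, 2.56 and 2.31 CPM in the tumors labelled WDR11OE replicates 1 to 4. All controls were above all tumors labelled WDR11OE, by a small margin for control replicate 1. The log2 fold change of −0.55 (SE 0.20) failed the threshold (edgeR adjusted p = 0.0692). It passed by DESeq2 (adjusted p = 0.0354), a method with 29.1% false calls in the simulation described below. With the GC trend removed the log2 fold change of Phlda3 was −0.11.

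Of 34 other direct targets of p53, chosen from textbook knowledge, all were tested, 3 were lower, 7 were higher and 24 did not pass. That is 8.82% lower and 20.6% higher, against 15.8% and 18.1% of all genes, so the higher share was near the background. With the GC trend removed 2 were lower and 4 were higher, against 13.7% and 12.2% of all genes in that fit. Their median log2 fold change was −0.09. By role, 2 of 13 cell death genes were lower and 3 were higher, 1 of 9 genes of growth arrest and signalling was lower, 1 of 6 genes of metabolism and redox balance was higher, and 3 of 6 genes of DNA repair and nucleotide supply were higher.

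Among the cell death genes, Trp53inp1, a nuclear protein that promotes autophagy and apoptosis, rose from a control mean of 29.2 ± 2.61 CPM (SD, n = 3) to 59.0 ± 11.96 CPM (SD, n = 4), which is 1.02 in log2 units (edgeR adjusted p = 0.00379). With 38.6% GC it was at 0.57 with the GC trend removed, which did not pass (edgeR adjusted p = 0.0685). Rps27l, a ribosomal protein paralog, rose by 0.88 on the log2 scale and Apaf1, the core of the apoptosome, by 0.46, but Apaf1 did not pass with the GC trend removed (0.29, edgeR adjusted p = 0.143) and passed in 2 of 7 fits with 1 tumor left out. Lrdd, the older name of Pidd1, a scaffold for caspase 2, fell from a control mean of 14.1 ± 0.443 CPM (SD, n = 3) to 9.06 ± 0.284 CPM (SD, n = 4), which is −0.64 in log2 units (edgeR adjusted p = 0.00380). With the GC trend removed Lrdd was at −0.35 and passed narrowly (edgeR adjusted p = 0.0451). The death receptor gene Tnfrsf10b fell by 0.48 on the log2 scale, did not pass with the GC trend removed (−0.49, edgeR adjusted p = 0.0594) and passed in 1 of 7 fits with 1 tumor left out. Perp, a desmosome protein, had a log2 difference of −0.38 that did not pass.

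Sulf2, an extracellular sulfatase of heparan sulfate, had the largest change of the target genes that passed. It fell from a control mean of 238.2 ± 7.90 CPM (SD, n = 3) to 89.6 ± 21.9 CPM (SD, n = 4), which is −1.41 in log2 units (edgeR adjusted p = 0.00203), and it was −1.22 with the GC trend removed. Btg2, an antiproliferative protein, and Ppm1d, the phosphatase WIP1 that dephosphorylates p53, had log2 fold changes of −0.33 and 0.30 that did not pass. In DNA repair, Ddb2 (log2 fold change 0.76) and Xpc (log2 fold change 0.38), which recognise ultraviolet lesions, and Polk (log2 fold change 0.39), a translesion polymerase, rose. Ddb2 and Xpc still passed with the GC trend removed, and Polk did not, at 0.07.

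**Figure D5:**
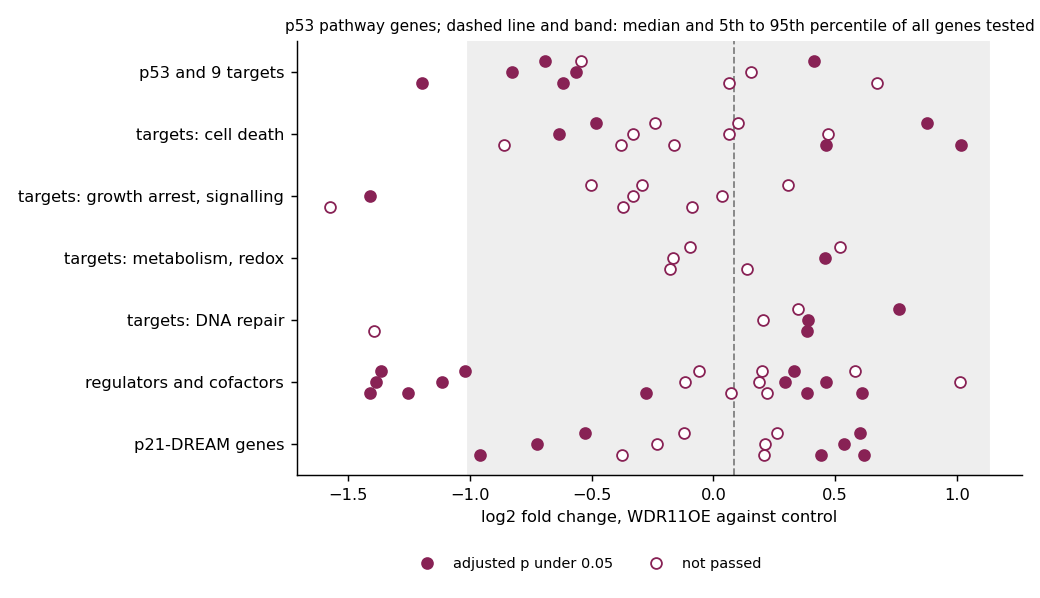
Log2 fold change of each gene in 7 lists of the p53 pathway, with filled points for an adjusted p under 0.05 and open points for genes that did not pass. The dashed line is the median of all genes tested, 0.08, and the grey band spans their 5th to 95th percentile. The 10 genes lie mostly to the left of the line, DNA repair targets mostly to the right, and 6 of the regulators and cofactors lie at −1 or below.

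Of 20 regulators and cofactors of p53, all tested, 7 were lower and 5 were higher, and 6 of the lower genes had a fold of at least 2. The background was 15.8% of all genes lower, 18.1% higher and 3.36% lower by a fold of at least 2. Those 6 were the acetyltransferase genes Crebbp and Ep300, the kinase gene Hipk2, and the ASPP family genes Ppp1r13b, Ppp1r13l and Trp53bp2, whose products bind p53. Hipk2, which phosphorylates p53, fell from a control mean of 71.9 ± 6.85 CPM (SD, n = 3) to 27.5 ± 7.53 CPM (SD, n = 4), which is −1.39 in log2 units (edgeR adjusted p = 0.00283). Ppp1r13b fell by 1.37 and Ppp1r13l by 1.41 on the log2 scale. The higher genes with the largest change were Atr, the kinase of the replication checkpoint (log2 fold change 0.61), the deacetylase Sirt1 (log2 fold change 0.46) and Atm, the kinase of double-strand breaks (log2 fold change 0.39). None of these 3 passed with the GC trend removed, where they were at 0.28 for Atr (edgeR adjusted p = 0.0583), 0.20 for Sirt1 (edgeR adjusted p = 0.0902) and 0.12 for Atm (edgeR adjusted p = 0.392). With the GC trend removed, 7 genes of the list were lower and 1 was higher, against 13.7% and 12.2% of all genes in that fit. Cdkn2a had a log2 difference of −0.12 and, like Trp63 and Trp73, did not pass.

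A further list held 13 genes that p53 represses through p21 and the DREAM complex, which silences cell cycle genes. Of these, 3 were lower, 4 were higher and 6 did not pass, against 15.8% and 18.1% of all genes, and the median log2 fold change was 0.21. Foxm1, a transcription factor of G2 and mitosis, fell from a control mean of 64.4 ± 5.28 CPM (SD, n = 3) to 33.1 ± 3.53 CPM (SD, n = 4), which is −0.96 in log2 units (edgeR adjusted p = 0.00112). Plk1 and Mybl2 fell by 0.72 and 0.53 on the log2 scale. Cdk1 rose from a control mean of 95.5 ± 17.9 CPM (SD, n = 3) to 146 ± 7.30 CPM (SD, n = 4), which is 0.62 in log2 units (edgeR adjusted p = 0.00841), and Ccnb1, its cyclin, and Bub1 rose by 0.60 and 0.54 on the log2 scale. Foxm1 and Cdk1 still passed with the GC trend removed. Plk1 (−0.50, edgeR adjusted p = 0.0815), Mybl2 (−0.33, edgeR adjusted p = 0.123), Ccnb1 (0.34, edgeR adjusted p = 0.165) and Bub1 (0.16, edgeR adjusted p = 0.419) did not.

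Markers of other cell types were read beside these results, since the host could contribute Trp53 and its targets. The summed level of 6 endothelial markers was 112 to 142 CPM in controls and 86.4 to 95.8 CPM in the tumors labelled WDR11OE, without overlap. Of the 6, 2 were lower (Cdh5 and Flt1) and none was higher, against 15.8% and 18.1% of all genes. Cldn5, Kdr, Pecam1 and Tek overlapped between the groups, and the log2 fold changes of Pecam1 (0.12) and Tek (0.02) were above 0. The summed level of 5 skeletal muscle markers was 1.38 to 1.97 CPM in controls and 33.0 to 101 CPM in the tumors labelled WDR11OE, and all 5 were higher. The part of these cells in the lower Trp53, Cdkn1a, Sesn2 and Zmat3 was not tested. For markers of microglia and macrophages (155 to 316 CPM against 138 to 245 CPM), astrocytes (282 to 383 CPM against 160 to 550 CPM), oligodendrocytes (133 to 349 CPM against 114 to 343 CPM), neurons and red blood cells (99.0 to 1124 CPM against 23.6 to 377.8 CPM), the groups overlapped and no gene passed the test. With the tumors labelled WDR11OE replicates 1 and 2 counted as 1 library, Trp53, Sesn2 and Zmat3 were the 3 lower genes of the 10 and none was higher. Of all 17132 genes tested in that fit, 2087 were lower and 1629 were higher, fewer than in the main fit.

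Over the 7 tumors, the genes with a pattern of log2 CPM most like that of Trp53, among 14516 genes with an average log2 CPM above 0, were Jph1 (Pearson's r = 0.994), Pdgfrb (r = 0.993) and Fbxo10 (r = 0.992). For Cdkn1a they were Vat1 (r = 0.970), Bhlhe41 (r = 0.966) and 1110021J02Rik (r = 0.965). Pdgfrb, a receptor of pericytes and other mural cells, averaged 106 ± 11.9 CPM (SD, n = 3) in controls against 70.2 ± 8.60 CPM (SD, n = 4) in tumors labelled WDR11OE. Its log2 fold change was −0.60, and Jph1 (−0.82) and Fbxo10 (−0.60) were also lower. Which cells these transcripts come from was not tested. Among the 10 genes, the pairs with the highest correlation were Sesn2 with Zmat3 (r = 0.929) and Trp53 with Sesn2 (r = 0.902), and Ccng1 and Zmat3 had the lowest (r = −0.894). These correlations describe 7 points that share a group difference, a library series and a GC trend.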

How the data were processed

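The authors mapped reads of 7 tumors to NCBIM37.67 (mm9) with the StrongArm pipeline and deposited raw counts per gene made with HT-seq on a GENCODE annotation. The submitters' processing notes name CASAVA, STAR, BWA and HTSeq. The methods give stranded total RNA, the labels a TruSeq RNA kit, and the strand setting of the counting is not given in the sources used here. The deposited counts hold 34592 genes, of which 33606 (97.1%) were matched to GENCODE vM1 for coordinates, exon length and GC content.

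Counts were filtered with filterByExpr, scaled by TMM and tested with the quasi-likelihood test of edgeR 4.0.16 (R 4.3.3), two-sided, with Benjamini-Hochberg adjustment over the 17389 genes kept and the condition as the only term. limma 3.58.1 with voom, the authors' method, and DESeq2 1.42.0 were alternatives. Intervals are 95% and rest on the spread between tumors. Permutation tests used log2 CPM with a prior count of 2, and their p-values are not adjusted for the number of genes. The p53 site was searched in the NCBIM37 genome, because the promoter table at hand is of another build. In simulated counts for this comparison, 200 of 17187 genes were changed. There edgeR recovered 68% of genes changed by a log2 fold change of 1.50 and 26% of those changed by 0.75, and 2.08% of its calls were false. In the same simulated counts, 3.61% of the calls of limma-voom and 29.1% of those of DESeq2 were false. When the simulation also tilted fold changes by GC content (17174 genes, 200 changed), 77.0% of the calls of edgeR were false, or 3.06% after that tilt was fitted and removed. A far larger share of genes passed in the data, 15.8% lower and 18.1% higher. These rates depend on the share of changed genes and do not carry over to the data.

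The 10 genes and all lists were chosen with earlier results of these data known. Named are the 10 genes, up to 3 lower and 3 higher genes of each list of the p53 pathway or model among those that passed (not of the cell type markers), the genes Cdkn2c, Cdkn2a, Mdm4, Trp63, Trp73, Ppm1d, Sesn1, Perp and Btg2, and the 3 genes most like Trp53 and Cdkn1a. Crebbp, Ep300, Trp53bp2, the endothelial markers Cdh5, Flt1, Cldn5, Kdr, Pecam1 and Tek, and the granule lineage markers fall outside this rule and were named after their values were seen. The tumors of a group are taken as separate samples, since the labels give no mouse for each, so p-values measure the spread between these samples. Depth limits Pmaip1 most, and counting error covers sampling of reads only, since there are no molecular identifiers.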

Additional observations from a re-analysis of the deposited data

Results flagged for a closer look

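Among 49 checks of the 4 tumors labelled WDR11OE, 2 values stood apart from the other 3 by Dixon's test, where chance gives about 1 in 20. Phlda3 was at 2.31 CPM in the tumor labelled WDR11OE replicate 4 against 2.56 to 2.57 CPM in the others. Pdgfrb was at 57.4 CPM in the same tumor against 73.3 to 75.9 CPM in the others.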

How the results depend on the processing

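No paired analysis was possible because no label pairs a control with a tumor labelled WDR11OE, and equal replicate numbers do not mark pairs. Of the 10 genes, 5 were lower and 1 was higher. Without a filter on low counts the numbers were 3 and 0, with the tumors labelled WDR11OE replicates 1 and 2 summed 3 and 0, with an adjusted p under 0.01 3 and 0, with a fold of at least 2 they were 1 and 0, and with the GC trend removed 3 were lower. Leaving out each tumor in turn gave 3 to 5 lower and 0 to 1 higher. For the 34 other targets, 3 lower and 7 higher, DESeq2 gave 5 lower, removal of the trend on exon length 5 lower, and removal of the filter, removal of the GC trend and summing each gave 4 higher, while leaving out each tumor gave 2 to 5 lower and 4 to 7 higher. Of the regulators, 5 were higher, against 3 without a filter, 1 with the GC trend removed, 2 with the libraries summed and 2 to 5 with a tumor left out, and the lower genes were 6 to 7. Of the genes repressed through p21 and DREAM, 3 lower and 4 higher became 1 and 2 with the GC trend removed, 1 and 1 with the libraries summed, and 1 to 3 and 1 to 5 with a tumor left out. Over all genes, 3150 were higher, against 2093 without a filter, 1629 with the libraries summed and 1560 to 2986 with a tumor left out, the lowest without WDR11OE replicate 1, and the 2744 lower genes became 2011 to 2868. Mdm2 turned to a log2 fold change of −0.0173 with the GC trend removed, and Bax to −0.10 with the exon length trend removed, −0.0817 without control replicate 1, −0.0325 without WDR11OE replicate 2 and −0.0046 with the libraries summed, over a range of −0.0817 to 0.186 with a tumor left out. Other scalings moved the median of all genes by less than 0.1 (log2). Scaling by library size or upper quartile for the permutation tests was chosen after seeing the data. The causes of these changes were not tested.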
